A study of Mus musculus with 8 samples.

Results

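Cxcr2, Cxcr4, Cxcl1, Cxcl2, Cxcl3 and Ccrl2 are 6 genes of the system that guides neutrophils, and they were followed here in CD45+ cells sorted from arthritic mouse paw joints. They were chosen by name, with earlier results of these data known, and all 6 stood among the 28434 gene rows of the deposited tables, each once. Cells were kept when they held 250 to 3000 genes, at least 500 unique molecular identifiers (UMIs, each standing for 1 captured transcript) and at most 5% mitochondrial UMIs. This left 10256 of 10538 barcodes.

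Neutrophils leave the bone marrow, enter tissue and move within it along gradients of CXC chemokines. Cxcl1, Cxcl2 and Cxcl3 encode secreted ligands of the receptor CXCR2, which draws neutrophils out of the marrow and towards inflamed tissue. CXCR4, the receptor of CXCL12, holds neutrophils in the marrow and is known to increase on ageing neutrophils. Ccrl2 encodes an atypical receptor without chemotactic signalling of its own, which binds chemerin and can pair with CXCR2 at the neutrophil surface. Neutrophils are effector cells of serum-transfer arthritis, and those in the joint are themselves a known source of CXCR2 ligands.

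Both groups were C57BL/6 mice 10 weeks of age that received 100 µL of K/BxN arthritogenic serum on days 0, 2 and 9, and bone marrow-derived monocytes intravenously on day 12. In the Mono+MCTR3 group (4 mice) the monocytes had been incubated for 90 min at 37 °C with 1 nM MCTR3, a maresin conjugate in tissue regeneration, and in the Mono group (4 mice) with vehicle. The transferred monocytes came from arthritic C57BL/6 mice, so their descendants cannot be told apart by genotype from the cells of the host. Paws were taken on day 22 and digested, and the cells of each mouse were made into a library of its own; there was no group without transferred monocytes. Each mouse is known here by the suffix of its barcodes within its group (1 to 4), which does not say which labelled mouse it is. The kept cells held 1731045 to 6009009 UMIs per mouse in the Mono+MCTR3 group and 2602412 to 3832301 in the Mono group. Pairs of mice within a group shared 0 to 8 barcode sequences.

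Neutrophils made up 6935 of the 10256 cells, and 55.3% to 84.2% of the cells of a mouse. Clustering without the 6 genes divided them into 6 clusters, which are named after leading genes or after markers. A Fcnb-led cluster (377 cells) and a Ltf-led cluster (636 cells) carried the granule genes of early neutrophils, and a stefin-led cluster (1906 cells) lay between these and the rest. A mature-like cluster (2295 cells), an activated-like cluster (1527 cells, with Tnf, Gadd45b and Csf1 among its leading genes) and an interferon-like cluster (194 cells) made up the rest. The mean log2 difference from the other cells over the mature markers was 1.18, 1.26 and 1.13 in these clusters, in the same order. Those markers therefore do not set the mature-like cluster apart from the activated-like and interferon-like ones. The other cells were 1409 B-cells, 763 T-cells, 633 NK cells, 383 monocytes and macrophages, 124 cells of smaller clusters and 9 haemoglobin-high barcodes. Of the monocytes and macrophages, 334 formed a cluster called macrophage-like, which carried classical monocyte genes as well. Its mean log2 difference from the other cells was 3.48 over the macrophage markers and 3.44 over the classical monocyte markers. The activated-like cluster was named from genes that move with several of the members, so levels by cluster are given as a description, without a test.

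The 3 ligand genes lie within 119836 bases of chromosome 5 (GRCm38), in the order Cxcl3 (90786103 to 90789600), Cxcl1 (90891241 to 90893115) and Cxcl2 (90903871 to 90905938), all on the plus strand. Cxcl1 ends 10756 bases before Cxcl2 starts, and Cxcl3 ends 101641 bases before Cxcl1 starts. Cxcr2 (74153989 to 74161246, plus strand) and Cxcr4 (128588199 to 128592293, minus strand) both lie on chromosome 1, and Ccrl2 (111054486 to 111057519, minus strand) on chromosome 9.

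The promoters of the ligands and of Ccrl2 are shown because, after the windows of all 6 genes were searched, these 4 genes held a match to the NF-kappaB consensus. Each runs 5′ to 3′ from 250 bases before to 50 bases after the RefSeq start (GRCm38.p6), with the match to the NF-kappaB consensus in capitals. The windows are chr5:90890995-90891294 for Cxcl1, chr5:90903649-90903948 for Cxcl2 and chr5:90785851-90786150 for Cxcl3 (plus strand), and chr9:111057469-111057768 for the first of the Ccrl2 windows (minus strand).
Cxcl1: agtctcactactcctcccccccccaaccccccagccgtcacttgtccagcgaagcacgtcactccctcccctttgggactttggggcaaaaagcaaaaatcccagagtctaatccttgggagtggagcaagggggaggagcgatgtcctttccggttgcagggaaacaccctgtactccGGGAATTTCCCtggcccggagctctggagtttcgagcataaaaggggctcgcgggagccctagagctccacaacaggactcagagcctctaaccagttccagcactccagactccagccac
Cxcl2: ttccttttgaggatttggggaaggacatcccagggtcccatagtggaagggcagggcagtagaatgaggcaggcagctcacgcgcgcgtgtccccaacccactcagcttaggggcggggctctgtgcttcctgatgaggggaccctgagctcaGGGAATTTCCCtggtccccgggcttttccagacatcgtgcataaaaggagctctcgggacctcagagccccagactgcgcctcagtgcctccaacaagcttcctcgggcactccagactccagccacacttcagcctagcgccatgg
Cxcl3: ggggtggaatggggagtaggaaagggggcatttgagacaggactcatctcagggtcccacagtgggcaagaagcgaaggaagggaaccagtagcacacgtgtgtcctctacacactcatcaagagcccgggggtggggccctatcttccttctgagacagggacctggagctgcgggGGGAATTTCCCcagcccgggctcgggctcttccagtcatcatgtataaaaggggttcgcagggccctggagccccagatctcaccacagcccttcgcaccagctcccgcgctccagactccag
Ccrl2: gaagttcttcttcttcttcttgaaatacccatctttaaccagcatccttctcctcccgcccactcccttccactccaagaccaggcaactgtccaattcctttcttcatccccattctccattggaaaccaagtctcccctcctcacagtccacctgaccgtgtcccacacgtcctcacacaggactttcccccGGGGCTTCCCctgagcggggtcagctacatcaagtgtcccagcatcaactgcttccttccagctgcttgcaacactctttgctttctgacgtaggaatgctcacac
Cxcl1, Cxcl2 and Cxcl3 held the same match, which starts 71, 97 and 73 bases before the start. It reads as the consensus on both strands, at overlapping places 1 base apart. The Ccrl2 window held another match, 56 bases before its start, and the other Ccrl2 windows held none. No match was found on either strand of the Cxcr2 and Cxcr4 windows. Of 32851 promoters of this length in the RefSeq table, 8.46% held the consensus on either strand. A box reading TATAAA was found in the Cxcl3 and Cxcr4 windows and in 13.6% of all promoters. These matches describe the letters of the windows and do not show that a factor binds there.

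Cxcr2 was a transcript of neutrophils. Of its 4722 UMIs, 98.4% were in neutrophils, which were 67.6% of the cells. Its level, as UMIs of the gene per 1000000 UMIs of the cells of a cluster in a mouse (CPM), was lowest in the Fcnb-led cluster at 36.5 ± 16.7 CPM (SD, n = 7 mice with at least 10 such cells). It was 150 ± 28.4 CPM in the Ltf-led cluster and 324 ± 36.6 CPM in the stefin-led cluster (SD, n = 8). The mice of these 3 clusters did not overlap, and each later cluster lay above the earlier one in every mouse compared. In the later clusters it was 476 ± 68.2 CPM in the mature-like cluster and 448 ± 75.6 CPM in the activated-like cluster (SD, n = 8). Activated-like cells were the higher of this pair in 2 of 8 mice. The interferon-like cluster had 593 ± 253 CPM (SD, n = 7), and its mice ranged from 286 to 1086 CPM and overlapped those of both. Macrophage-like cells had 0.955 ± 1.32 CPM (SD, n = 7), from 3 UMIs in all. Outside neutrophils, a small mast-cell-or-basophil-like cluster had 25 Cxcr2 UMIs in 15 of its 27 cells. CPM is a share of the UMIs of the cells, so its order can differ from that of UMIs per cell. Median UMIs per cell were 6212 in Fcnb-led, 3827 in Ltf-led, 2191 in stefin-led, 1452 in mature-like and 1292 in activated-like cells. Cxcr2 had 93 UMIs in 377 Fcnb-led, 366 in 636 Ltf-led and 1383 in 1906 stefin-led cells. The mature-like cluster had 1687 in 2295 cells and the activated-like cluster 959 in 1527.

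Cxcr4 was highest in the activated-like and interferon-like neutrophils and was also found in lymphocytes and macrophage-like cells. Its level was 56.6 ± 9.79 CPM in the Fcnb-led cluster (SD, n = 7) and 83.0 ± 22.5 CPM in the Ltf-led cluster (SD, n = 8). It was 251 ± 41.9 CPM in the stefin-led, 635 ± 105 CPM in the mature-like and 939 ± 148 CPM in the activated-like cluster (SD, n = 8). Activated-like cells exceeded mature-like cells in 8 of 8 mice, by 1.48-fold in the means. Interferon-like cells had 912 ± 234 CPM (SD, n = 7), which overlapped the activated-like level. Neutrophils held 73.3% of the 8062 Cxcr4 UMIs and B-cells 14.2%. Among B-cells, an Ighd-led cluster of 638 cells had 461 ± 163 CPM, against 195 ± 58.7 CPM in a Vpreb3-led cluster of 771 cells (SD, n = 8). Macrophage-like, NK-like and T-cell-like cells had 150 ± 21.9, 149 ± 30.0 and 97.8 ± 14.7 CPM (SD, n = 7, 8 and 8). By count, Cxcr4 had 146 UMIs in 377 Fcnb-led cells and 209 UMIs in 636 Ltf-led cells, fewer per cell in the latter. The activated-like cluster had 2011 UMIs in 1527 cells, more per cell than either.

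**Figure D1:**
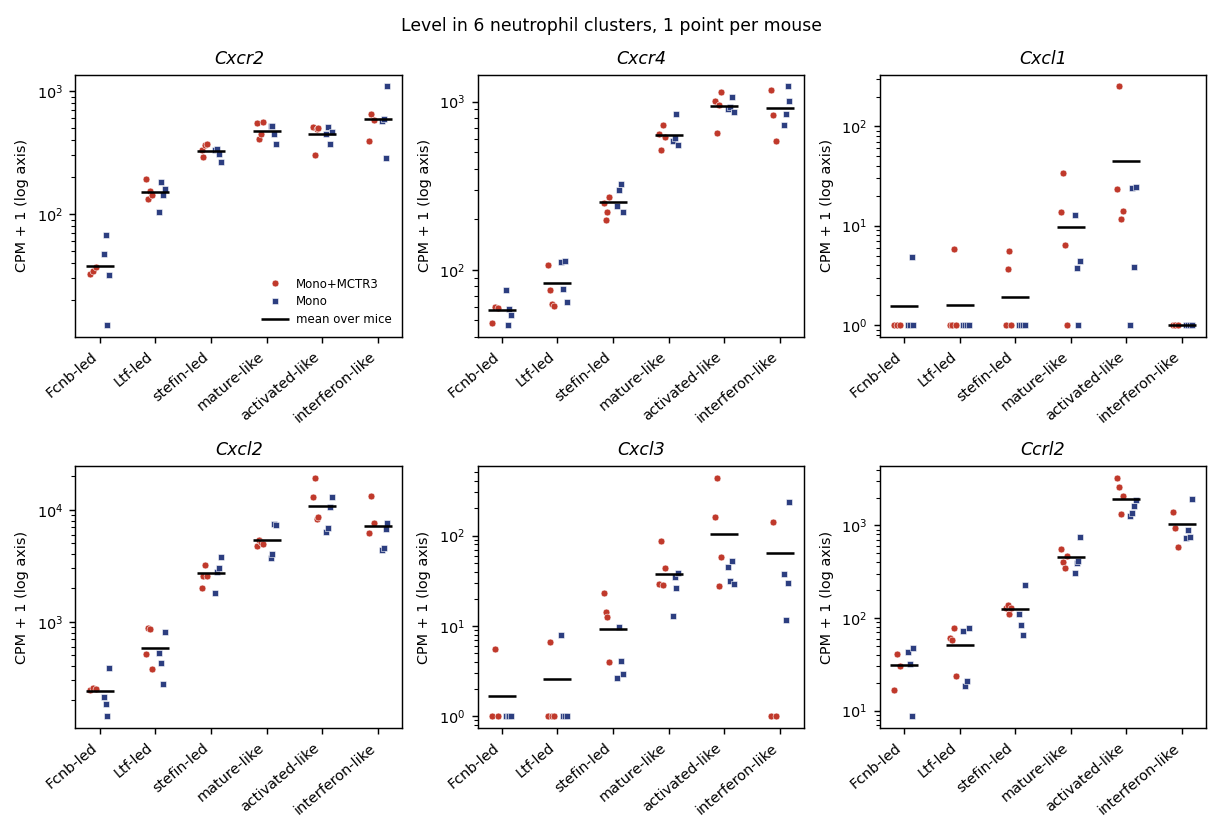
Level of each gene in the 6 neutrophil clusters, as CPM plus 1 on a log axis. Each point is a mouse with at least 10 cells of the cluster (circles, Mono+MCTR3; squares, Mono) and the bar is the mean over mice. The Cxcr2 mean lies between 448 and 593 CPM in the last 3 clusters, while Cxcr4, Cxcl2 and Ccrl2 reach their highest neutrophil means in the activated-like cluster at 939, 10727 and 1931 CPM.

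The balance of the 2 receptors was not the same in all clusters. The ratio of Cxcr4 to Cxcr2 UMIs had a median over mice of 0.486 in the Ltf-led cluster (0.40 to 1.07) and 0.741 in the stefin-led cluster (0.597 to 1.05). In both, 7 of 8 mice had more Cxcr2 than Cxcr4 UMIs. In the mature-like cluster the median was 1.22 (1.10 to 1.88) and in the activated-like cluster 2.01 (1.83 to 2.91), with Cxcr4 in excess in 8 of 8 mice in both. The Fcnb-led cluster, where both receptors were low, had a median of 1.64 over 7 mice that spread from 0.692 to 5.0. Interferon-like cells had a median of 1.29 over 7 mice (0.929 to 4.30). A ratio of UMIs of 2 genes is read here only against the same ratio in other cells.

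The ratio was also described with neutrophils ordered by a maturity index, which is not a check separate from the clusters. The index is the log2 ratio of UMIs of a mature to an immature gene list, neither of which holds a member, and it was divided into 6 bins of 1155 or 1156 cells. The lowest bin was 32.6% Fcnb-led and 51.6% Ltf-led cells, and the highest was 67.3% activated-like and 26.6% mature-like cells. A rise over the bins is therefore not told apart from a rise towards the activated-like cluster. The mean ratio of Cxcr4 to Cxcr2 was 0.73, 0.77, 1.05, 1.31, 1.86 and 2.12 from the lowest to the highest bin. The Cxcr2 mean was 106, 328, 397, 451, 487 and 494 CPM, so that most of its range lay between the first bins. Cxcr4 was at 71.8, 251, 407, 587, 875 and 1014 CPM in the same bins. Cxcl2 had 518 CPM in the first bin and 8819 CPM in the last, and Ccrl2 had 48.4 and 1661 CPM.

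**Figure D2:**
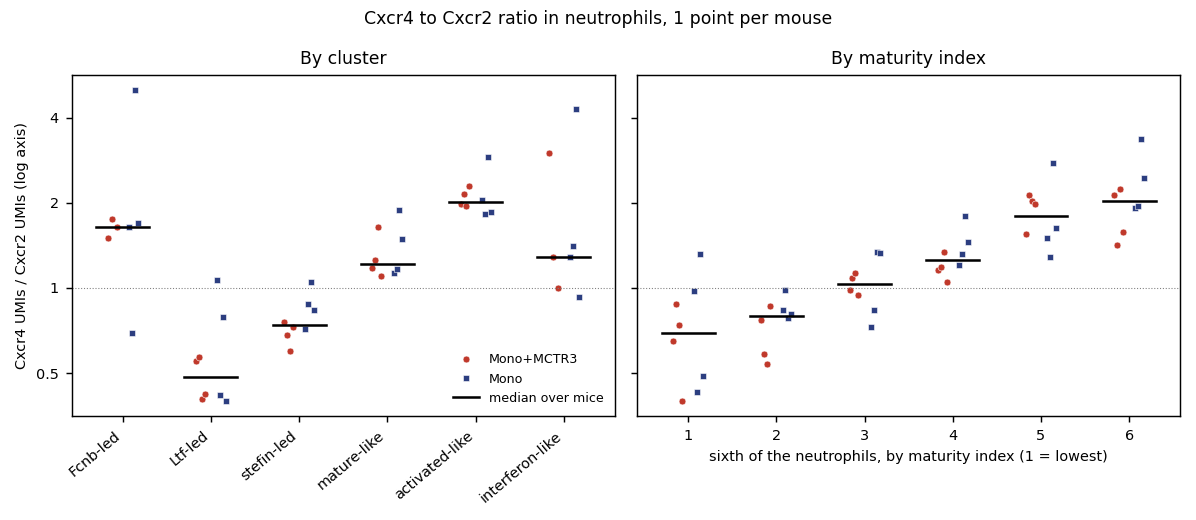
Ratio of Cxcr4 to Cxcr2 UMIs on a log axis, by neutrophil cluster and by bin of the maturity index from lowest to highest. Each point is a mouse (circles, Mono+MCTR3; squares, Mono), the bar is the median over mice and the dotted line marks equal UMIs of both. The activated-like mice lie between 1.83 and 2.91, and the Ltf-led mice between 0.40 and 1.07.

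Both receptors were also looked at within single cells. Each cell was thinned to 1000 UMIs so that depth was equal, which left out 602 of 6935 neutrophils. Cxcr4 was then seen in 38.6% of neutrophils with a Cxcr2 UMI and in 31.6% of those without one, higher with Cxcr2 in 8 of 8 mice. Within the mature-like cluster the shares were 42.9% and 41.7%, higher with Cxcr2 in 4 of 8 mice, and within the activated-like cluster 55.3% and 54.8%, in 3 of 8.

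Cxcl2 was the most abundant of the members, with 59548 UMIs, against 306 for Cxcl1 and 419 for Cxcl3. Neutrophils held 92.7% of the Cxcl2 UMIs, and 82.4% to 98.7% of those of a mouse. The activated-like cluster alone held 36.7% of them and the mature-like cluster 30.0%. The level was 239 ± 76.1 CPM in the Fcnb-led cluster (SD, n = 7) and 582 ± 233 CPM in the Ltf-led cluster (SD, n = 8). It was 2713 ± 633 CPM in the stefin-led, 5311 ± 1351 CPM in the mature-like and 10727 ± 4270 CPM in the activated-like cluster (SD, n = 8). The activated-like cells exceeded the Fcnb-led cells 44.9-fold in the means (30.3-fold with the 6 genes kept in the clustering) and the mature-like cells 2.02-fold, and they lay above the mature-like cells in 8 of 8 mice. These are folds of CPM, and median UMIs per cell were 6212 in Fcnb-led and 1292 in activated-like cells. By count, Cxcl2 had 663 UMIs in 377 Fcnb-led cells and 21861 UMIs in 1527 activated-like cells, a smaller fold per cell. Interferon-like cells had 7180 ± 2941 CPM (SD, n = 7), which overlapped both the mature-like and the activated-like mice.

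Monocytes and macrophages were the next source of Cxcl2, with 5.0% of its UMIs in 383 cells (0.0201% to 13.1% over mice, median 2.69%). Mono+MCTR3 mouse 2 held 1599 of these 2979 UMIs, and without it the share was 2.91%. The macrophage-like cells had 1107 ± 702 CPM (SD, n = 7). Their transcripts were concentrated, since 14 of the 383 monocytes and macrophages held at least as many of the UMIs as all the others together, and 1 cell held 450. A small mast-cell-or-basophil-like cluster of 27 cells held 246 Cxcl2 UMIs. B-cells, T-cells and NK cells had few Cxcl2 UMIs, and free RNA in the droplets can give such UMIs to cells that do not express a gene. After thinning to 1000 UMIs, 64.3% of neutrophils, 83.7% of activated-like neutrophils and 22.3% of monocytes and macrophages held a Cxcl2 UMI, against 6.13% of B-cells, 5.67% of T-cells and 7.54% of NK cells. The median depths before thinning were 1717, 1292, 6485, 2249, 3569 and 2473 UMIs in the same order. Per 1000 UMIs of the neutrophil genes S100a8 and S100a9 there were 19.2, 18.5 and 23.5 Cxcl2 UMIs in B-cells, T-cells and NK cells, against 13.3 in neutrophils (0.771 to 95.7 by cluster) and 305 in monocytes and macrophages. The lymphocyte UMIs were concentrated too. Of 1409 B-cells, 11 held at least as many as all the others together, as did 20 of 763 T-cells and 8 of 633 NK cells. Whether the lymphocyte UMIs came from free RNA was not tested. Thinning left out 602 of 6935 neutrophils, 271 of 1527 activated-like cells, 2 monocytes and macrophages, 5 B-cells, 5 T-cells and 10 NK cells. In unthinned cells the shares with a Cxcl2 UMI were 74.0% of neutrophils, 13.7% of B-cells, 17.3% of T-cells and 15.0% of NK cells.

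Cxcl1 UMIs lay in few cells. Its 306 UMIs lay in 66 of 10256 cells, and 6 cells held at least as many as all the others together. Monocytes and macrophages had 124 UMIs, neutrophils 118 and a fibroblast-like cluster of 20 cells 61, of which 55 were in 1 cell of a Mono mouse. Of the neutrophil UMIs 70 were from Mono+MCTR3 mouse 2. The neutrophil share of Cxcl1 was 38.6%, with 4.65% to 100% over mice, and 25.7% without that mouse. The macrophage-like level was 69.2 ± 71.6 CPM (SD, n = 7) and the activated-like level 43.4 ± 84.6 CPM (SD, n = 8), so that the SD exceeded the mean in both. No Cxcl1 UMI was seen in 763 T-cells, which allows up to 1.09 CPM (3 UMIs over all T-cells, counting error only).

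Cxcl3 was about as rare as Cxcl1 but was found mainly in neutrophils. Neutrophils held 91.4% of its 419 UMIs, which lay in 225 cells. The level was 8.17 ± 7.26 CPM in the stefin-led, 36.7 ± 22.4 CPM in the mature-like and 104 ± 141 CPM in the activated-like cluster (SD, n = 8). Activated-like cells exceeded mature-like cells in 5 of 8 mice.

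**Figure D3:**
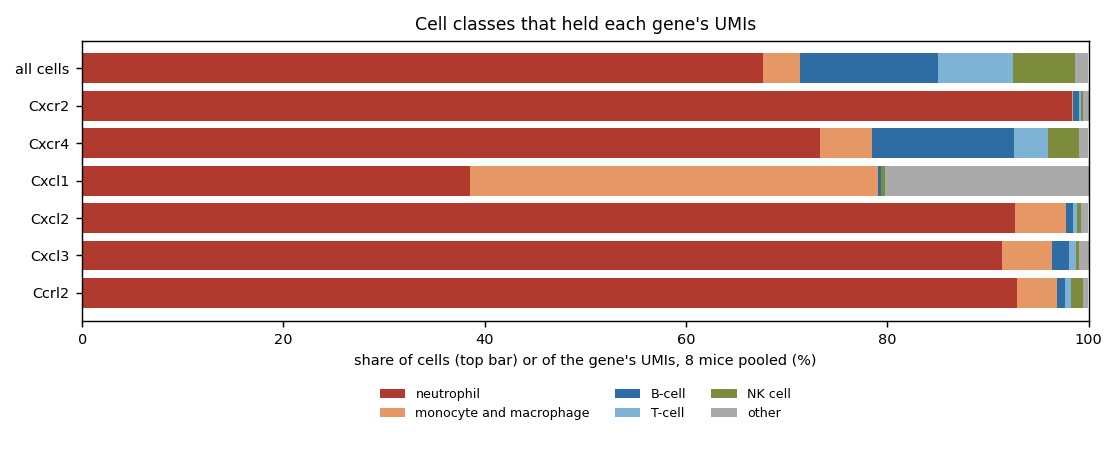
Stacked bars of the share of the UMIs of each gene, in percent and pooled over the 8 mice, that came from each kind of cell, under a bar of the share of cells; 9 haemoglobin-high barcodes are not drawn. Neutrophils hold 98.4% of Cxcr2, 73.3% of Cxcr4, 92.7% of Cxcl2 and 92.9% of Ccrl2 UMIs, but 38.6% of Cxcl1 UMIs (25.7% without Mono+MCTR3 mouse 2).

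Ccrl2 was concentrated in the activated-like cluster. Of its 7003 UMIs, 92.9% were in neutrophils and 56.3% in activated-like cells, which were 14.9% of all cells. The level was 30.3 ± 14.3 CPM in the Fcnb-led cluster (SD, n = 7), 50.1 ± 26.0 CPM in the Ltf-led cluster and 123 ± 47.5 CPM in the stefin-led cluster (SD, n = 8). It was 454 ± 143 CPM in the mature-like and 1931 ± 715 CPM in the activated-like cluster (SD, n = 8). Activated-like cells exceeded mature-like cells 4.25-fold in the means, against 2.02-fold for Cxcl2 and 0.941-fold for Cxcr2. Ccrl2 was itself among the 10 leading genes of the cluster. It took no part in the clustering, but the members were chosen with this pattern in view, so its rank is a description only. After thinning, 55.3% of activated-like and 21.7% of mature-like cells held a Ccrl2 UMI, against 1.42% of B-cells and 1.85% of T-cells.

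Ccrl2 was seen more often in neutrophils that also held Cxcl2. After thinning to 1000 UMIs, 29.0% of 4070 neutrophils with a Cxcl2 UMI held a Ccrl2 UMI, against 8.97% of 2263 neutrophils without one. In the Mono+MCTR3 mice the shares with and without Cxcl2 were 35.9% and 10.4%, 24.5% and 4.00%, 20.4% and 6.36%, and 32.5% and 15.5%. In the Mono mice they were 23.0% and 6.27%, 31.1% and 18.3%, 28.6% and 6.72%, and 37.8% and 6.54%. The share was higher with Cxcl2 in 8 of 8 mice, by 19.96 ± 6.18 percentage points (SD, n = 8, 12.8 to 31.2). Both genes were highest in the same cluster, and the difference was also found within the mature-like cluster, at 24.3% with and 12.99% without Cxcl2 (higher in 8 of 8 mice). Within the activated-like cluster the shares were 58.0% and 41.0%, higher in 5 of the 6 mice with at least 10 cells of each kind. Thinned to 1500 UMIs the activated-like shares were 66.1% and 61.4%, not higher with Cxcl2 in the 1 mouse with enough cells. The mature-like shares were then 30.7% and 13.3%, higher in 6 of 7 mice. In unthinned activated-like cells the shares were 60.8% and 43.1%, higher in 6 of 6 mice. For Cxcr2 the share was lower with Cxcl2 than without it in these clusters after thinning to 1000 UMIs. A Cxcr2 UMI was seen in 33.6% of mature-like cells with Cxcl2 and in 44.4% of those without, higher with Cxcl2 in 0 of 8 mice. In activated-like cells the shares were 32.2% with and 43.4% without Cxcl2, higher with Cxcl2 in 0 of 6 mice. In unthinned cells the mature-like shares were 45.6% and 51.9%, higher with Cxcl2 in 3 of 8 mice, and the activated-like shares 39.4% and 46.7%, in 0 of 6.

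**Figure D4:**
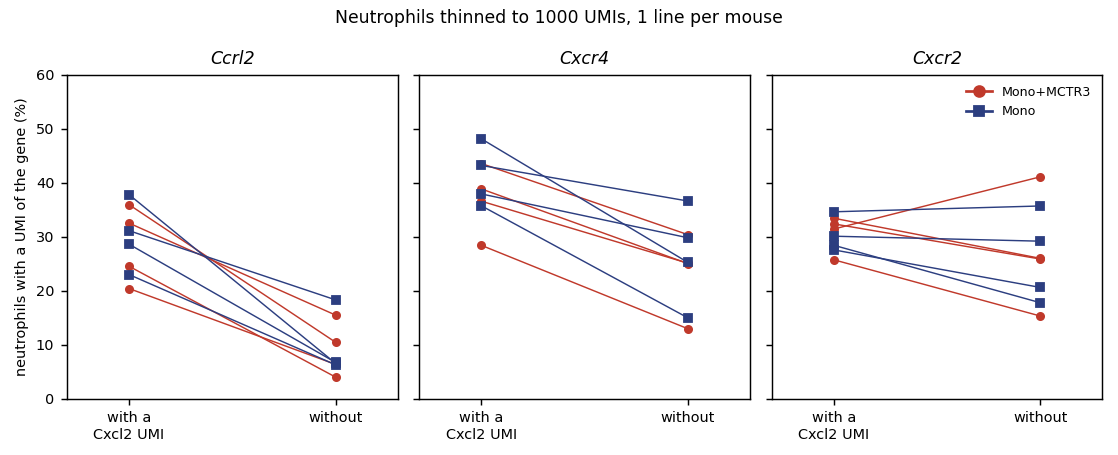
Share of neutrophils, each thinned to 1000 UMIs, that held a UMI of the gene named above the panel, among cells with a Cxcl2 UMI (left) and without one (right). Each line is a mouse (circles, Mono+MCTR3; squares, Mono). For Ccrl2 the value with a Cxcl2 UMI lies above the value without in all 8 mice, by 19.96 percentage points on average.

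Over the 12 clusters with enough mice, each member was compared with 4118 other genes by the Pearson correlation of log2 levels, as a description with clusters as points. The genes most like Cxcl2 were Il1b, which encodes interleukin-1 beta (r = 0.994), and Ptafr, the platelet-activating factor receptor (r = 0.994). Trpm2, a cation channel gene, was most like Cxcr2 (r = 0.995), and Ttyh3 was most like Cxcr4 (r = 0.96). The gene most like Cxcl3 was Ccrl2 (r = 0.97), and Etf1, a translation release factor, was most like Ccrl2 (r = 0.975). These points share libraries and the early-to-late order of neutrophils.

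Other genes of the pathway were given by lists. Of 11 other CXC ligand genes found in the tables, Pf4 (659 UMIs) and Cxcl16 (317 UMIs) had the most and were at 237 and 133 CPM in macrophage-like cells pooled over mice. Cxcl5, another CXCR2 ligand, had 0 UMIs in the kept cells, and Cxcl12, the ligand of CXCR4, had 74. Among 4 other CXC receptor genes, Cxcr5 (539 UMIs) was at 151 CPM in B-cells and Cxcr3 (467 UMIs) at 93.4 CPM in T-cells. Cxcr1, the other receptor of this family on neutrophils, had 110 UMIs and 17.4 CPM in mature-like cells. Of the chemerin genes, Cmklr1, the signalling chemerin receptor, had 60 UMIs with 24.5 CPM in NK cells, and Rarres2, which encodes chemerin, had 95.

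The comparison of Mono+MCTR3 with Mono mice asked whether monocytes incubated with MCTR3 changed these genes 10 days after transfer. No member passed the test in any of the 12 cell groupings fitted (quasi-likelihood test of edgeR on the summed UMIs of each mouse, Benjamini-Hochberg adjusted p under 0.05). In all CD45+ cells 0 of 6 members were called, where 2 of 9002 genes (0.0222%) were called, and 1 member, Cxcl3, had an unadjusted p under 0.05. DESeq2 also called 0 members in each of the 12 groupings. In neutrophils 0 of the 5 members tested were called, and 0 of 5305 genes (0%) were called, with 219 genes at an unadjusted p under 0.05 and 2 genes called by DESeq2, neither of them a member. Without the filter on low counts, 2 members in neutrophils passed, Cxcl1 and Cxcl3, with log2 differences of 1.55 and 1.10. That setting also raised the number of all genes called in neutrophils, as given further below.

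No difference between the groups was detected in neutrophils for Cxcr2 or Cxcr4. Cxcr2 had 324, 203, 319 and 424 CPM in Mono+MCTR3 mice, against 320, 417, 276 and 246 CPM in Mono mice. Cxcr4 had 376, 201, 423 and 528 CPM in Mono+MCTR3 mice, against 361, 548, 541 and 296 CPM in Mono mice. The groups overlapped for both genes. The log2 difference was 0.06 (SE 0.17) for Cxcr2 and −0.14 (SE 0.22) for Cxcr4, with edgeR adjusted p = 0.992 for both. The ratio of Cxcr4 to Cxcr2 was 1.16, 0.992, 1.33 and 1.24 in Mono+MCTR3 mice, against 1.13, 1.31, 1.96 and 1.20 in Mono mice. On the log2 scale the mean was 0.23 ± 0.18 in Mono+MCTR3 and 0.45 ± 0.36 in Mono mice (SD, n = 4 each), and the difference of −0.22 had a two-sided exact permutation p = 0.40, where the smallest possible is 0.0286.

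Cxcl2 had 3373, 3067, 3586 and 4310 CPM in neutrophils of Mono+MCTR3 mice, against 2387, 3877, 4746 and 4237 CPM in Mono mice. The groups overlapped, and the log2 difference was −0.03 (SE 0.18, edgeR adjusted p = 0.992). Ccrl2 had 572, 296, 301 and 629 CPM in neutrophils of Mono+MCTR3 mice, against 277, 539, 465 and 466 CPM in Mono mice, and the groups again overlapped. Its log2 difference was 0.09 (SE 0.24, edgeR adjusted p = 0.992). The cells that held the UMIs were compared too. Over 20 shares of UMIs by kind of cell, the lowest two-sided exact permutation p was 0.257, and the adjusted values were 0.883 or more. The activated-like share of neutrophils was 18.8 ± 6.53% in Mono+MCTR3 mice and 25.1 ± 8.44% in Mono mice (SD, n = 4 each, two-sided exact permutation p = 0.20, adjusted p = 0.60). The interferon-like share was 1.84 ± 0.854% in Mono+MCTR3 and 3.60 ± 1.77% in Mono mice (SD, n = 4 each, two-sided exact permutation p = 0.114, adjusted p = 0.60).

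Cxcl3 had the lowest unadjusted p of the members in all CD45+ cells. It had 20.5, 28.5, 11.7 and 17.9 CPM in Mono+MCTR3 mice, against 5.72, 13.9, 11.9 and 6.0 CPM in Mono mice. A single Mono+MCTR3 mouse lay below 2 Mono mice, and the other 3 lay above all of them. The log2 difference was 1.23 (SE 0.33, edgeR adjusted p = 0.711 over all genes). In neutrophils Cxcl3 had 31.9, 46.5, 14.7 and 26.4 CPM in Mono+MCTR3 mice, against 10.05, 21.8, 17.9 and 12.03 CPM in Mono mice, with a log2 difference of 1.11 (SE 0.35, edgeR adjusted p = 0.992). Without Mono+MCTR3 mouse 2 that difference was 0.67.

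In the activated-like cluster all 5 members tested had positive log2 differences, with a median of 0.49, against −0.01 over the 1994 genes tested. Those of Cxcr2 (0.05) and Cxcr4 (0.03) were below their SE of 0.16 and 0.14. They turned negative under other settings, such as no low count filter (−0.0046 and −0.023), and without single mice (lowest −0.036 and −0.060). With edgeR 0 members and 0 genes (0%) were called, 2 members and 95 genes had an unadjusted p under 0.05, and DESeq2 called 0 genes. Ccrl2 had 3274, 2632, 1333 and 2103 CPM in Mono+MCTR3 mice, against 1258, 1352, 1606 and 1894 CPM in Mono mice. The 3 highest values were of Mono+MCTR3 mice, and the fourth lay among the Mono mice. The log2 difference of Ccrl2 was 0.66 (SE 0.23, edgeR adjusted p = 0.867). Cxcl2 had 12979, 19287, 8304 and 8591 CPM in Mono+MCTR3 mice, against 6385, 6832, 10525 and 12915 CPM in Mono mice, with a log2 difference of 0.49 (SE 0.29, edgeR adjusted p = 0.948). The groups overlapped for Cxcl2.

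Cxcl3 had 160, 436, 26.7 and 57.2 CPM in activated-like cells of Mono+MCTR3 mice, against 44.0, 30.7, 51.8 and 28.1 CPM in Mono mice. Its log2 difference was 2.25 (SE 0.67, edgeR adjusted p = 0.862). The size rested on 1 mouse: without Mono+MCTR3 mouse 2, which held 97 of the 199 activated-like Cxcl3 UMIs, it was 1.13, and that of Cxcl2 was 0.11. Cxcl1 was too rare to be tested there and had 22.2, 252, 10.7 and 13.2 CPM in Mono+MCTR3 mice, against 0, 23.0, 2.88 and 23.4 CPM in Mono mice. Of the 56 Cxcl1 UMIs of Mono+MCTR3 mouse 2, 30 were in 1 cell. Without the filter on low counts, Cxcl1, Cxcl3 and Ccrl2 passed in this cluster, with log2 differences of 2.43, 2.19 and 0.61. That setting raised the number of all genes called in neutrophils and in monocytes and macrophages. Its count over all genes in the activated-like cluster is not given here.

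A list of 17 genes that NF-kappaB induces in inflammation was set beside the members in this cluster. Of 16 tested, 13 had positive log2 differences, 5 at an unadjusted p under 0.05 and 0 after adjustment, with a median of 0.44. Of all 1994 genes tested in this cluster, 970 had positive differences and 95 an unadjusted p under 0.05. Ccl4, a chemokine gene, had a log2 difference of 1.07 (SE 0.30) and Tnf one of 1.76 (SE 0.61), with edgeR adjusted p = 0.862 and 0.867. The summed level of the list was 27364, 34594, 23301 and 23060 CPM in Mono+MCTR3 mice, against 16479, 17604, 22054 and 20070 CPM in Mono mice. In this cluster 0% of genes were called, and the list was chosen with earlier results of these data known. Some of its genes also served to name the cluster, and in all neutrophils the sums of the groups overlapped, with 8 of 17 differences positive. Of 12 immediate early genes that tissue digestion can switch on, 4 of 10 tested in activated-like cells had positive differences. Their summed level in neutrophils was 5285, 3443, 8925 and 8065 CPM in Mono+MCTR3 mice, against 5275, 9726, 8816 and 4097 CPM in Mono mice. The part of digestion in the member levels was not tested.

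The genes that act below and beside these receptors were counted in the same fits. Of 17 receptor signalling genes, which encode G proteins, kinases, arrestins and regulators, all 17 were tested in neutrophils and 12 in activated-like cells. In both, edgeR called 0, 10 and 4 of the differences were positive, and the medians were 0.04 and −0.06. Of 9 other chemoattractant receptor genes, such as those for formyl peptides and complement, 6 were tested in each, 0 were called, and 4 and 5 differences were positive. At an unadjusted p under 0.05 there was 1 signalling gene in neutrophils and none of the others.

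**Figure D5:**
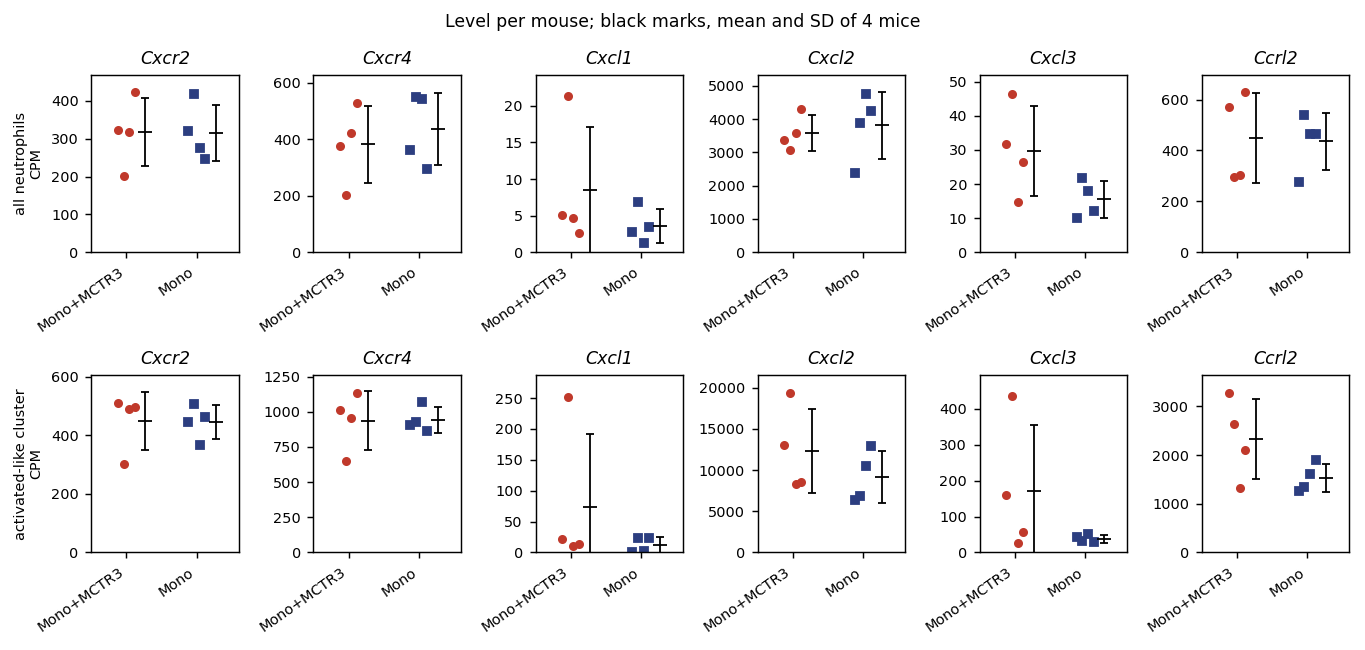
Level of the members in CPM per mouse in all neutrophils (top) and in the activated-like cluster (bottom), Mono+MCTR3 left of Mono. Points are the 4 mice of a group, and black marks show the mean with SD, cut at 0 where the SD exceeds the mean. The points of the groups overlap in every panel, and Mono+MCTR3 mouse 2 stands at 252 CPM for Cxcl1 and 436 CPM for Cxcl3 in activated-like cells.

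In monocytes and macrophages 0 of the 4 members tested were called, and 0 had an unadjusted p under 0.05, where 7 of 3583 genes (0.195%) were called. Mono+MCTR3 mouse 4 had 7 such cells and was left out of this fit, and mouse 3 had 10. Cxcl2 had 1092, 2234 and 1338 CPM in the other 3 Mono+MCTR3 mice, against 170, 670, 1307 and 851 CPM in Mono mice, and the groups overlapped. Its log2 difference was 1.00 (SE 0.48, edgeR adjusted p = 0.411). Cxcr4 had 146, 148 and 152 CPM in Mono+MCTR3 mice, against 141, 212, 267 and 184 CPM in Mono mice, a log2 difference of −0.49 (SE 0.23, edgeR adjusted p = 0.409). The 49 nonclassical-monocyte-like cells, with 596 CPM of Cxcr4 pooled over mice, were 1, 4 and 0 cells of these Mono+MCTR3 mice, against 5, 8, 16 and 14 cells of Mono mice. Within macrophage-like cells Cxcr4 had 139, 137 and 152 CPM in Mono+MCTR3 mice, against 140, 133, 197 and 150 CPM in Mono mice, and the groups overlapped. Without the filter on low counts Cxcl2 passed at a log2 difference of 0.91, and so did Cxcl3 at 3.32 from 21 UMIs. That setting also raised the number of all genes called in these cells, as given further below. Among the lists, Hspa1b, a heat shock gene of the digestion list, was lower in Mono+MCTR3 mice (log2 difference −2.47, SE 0.40, edgeR adjusted p = 0.0427). All 12 genes of that list had negative differences, where 1697 of all 3583 genes had positive ones. The unequal numbers of nonclassical-monocyte-like cells enter this fit too, and their part in it was not tested.

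In the remaining groupings 0 members were called by edgeR, where 1 of 2421 genes (0.0413%) was called in the stefin-led cluster and 0% in B-cells, T-cells, NK cells and the Fcnb-led, Ltf-led, mature-like and interferon-like clusters. In these, 1 member, Cxcl2 in interferon-like cells, had an unadjusted p under 0.05. Mono+MCTR3 mouse 4 was left out of the Fcnb-led fit and mouse 3 of the interferon-like fit, with 8 cells each. Cxcr4 differed by −0.15 in B-cells, −0.03 in T-cells and 0.36 in NK cells (log2, SE 0.17, 0.19 and 0.18, edgeR adjusted p = 0.944 or more). In the Fcnb-led, Ltf-led, stefin-led and mature-like clusters the differences of the members tested ran from −0.18 for Cxcr4 to 0.72 for Cxcl3. In interferon-like cells Cxcl2 differed by 0.77 (SE 0.30, edgeR adjusted p = 0.827).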

How the data were processed

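CD45+ cells from paw joints of 8 mice were measured by droplet single-cell RNA sequencing. The authors aligned reads with STAR in Cell Ranger to GRCm38 and aggregated the 4 libraries of each group, a step that evens out depth between libraries. Their versions were not stated in the methods or labels. The deposited tables hold UMI counts per gene and barcode, not normalised, 1 table per group, and 0 columns of other series were found. Mice were told apart by barcode suffix. Barcodes outside 250 to 3000 genes, under 500 UMIs or over 5% mitochondrial UMIs were left out.

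The 6 members were kept out of the clustering (Seurat 5.3.0, 2000 variable genes, 20 components, resolution 0.5). Of 15 clusters, 6 were neutrophil clusters. Clusters were called after a cell type from marker lists that hold no member, or otherwise after a leading gene, and barcodes with over 10% haemoglobin UMIs stood apart. Scrublet (scanpy 1.11.5) called 52 doublets (0.507%), which were kept in and removed as an alternative.

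UMIs were summed per mouse and cell grouping and tested over all genes with edgeR 4.0.16 (TMM, filterByExpr, quasi-likelihood F test, Benjamini-Hochberg, threshold 0.05), leaving out mice with under 10 cells. A p-value sets the difference between the groups against the spread between the mice within them. The test was also tried on simulated counts. DESeq2 1.42.0, the likelihood ratio test of edgeR that the study's methods name, library totals, other filters, other clusterings and leaving out each mouse were alternatives. Single values per mouse had two-sided exact permutation tests (scipy 1.17.1). Intervals and floors cover counting error only. The members were named in full; of the other pathway genes, those past the threshold or the pair with the most UMIs per list were named, and Cxcl5, Cxcl12, Cxcr1, Cmklr1, Rarres2, Ccl4 and Tnf were added after their values were seen. Of the 5 genes most like each member, the text gives the first or the first pair. The members and lists were chosen with earlier results of these data known.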

Additional observations from a re-analysis of the deposited data

Results flagged for a closer look

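In 56 sets of 4 mice (a member in a cell grouping and group), the highest or lowest mouse was compared with the other 3 by its gap relative to the whole range. In 4 sets the mouse stood apart, and chance gives about 1 in 20. In 3 of them it was Mono+MCTR3 mouse 2. Cxcr2 in its activated-like cells was at 301 CPM, against 491, 497 and 512 CPM in the other Mono+MCTR3 mice. Its Cxcl1 level was 21.4 CPM in neutrophils, against 2.64, 4.69 and 5.14 CPM, and 252 CPM in activated-like cells, against 10.7, 13.2 and 22.2 CPM. Cxcl1 in monocytes and macrophages of Mono mouse 3 was at 137 CPM, against 0, 0 and 21.6 CPM in the other Mono mice. These Cxcl1 values rest on few cells: 56 UMIs in 10 of the 138 activated-like cells of Mono+MCTR3 mouse 2, 30 of them in 1 cell, and 40 UMIs in 3 of the 40 macrophage-like cells of Mono mouse 3, 26 of them in 1 cell.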

How the results depend on the processing

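With the alternatives run, 543 of 596 values kept their direction and side of the threshold or moved by less than the spread, 4 member differences passed the threshold and 40 values turned in sign. Without the low count filter edgeR called 2 members in neutrophils, 2 in monocytes and macrophages and 3 in neutrophil stages: Cxcl3 (1.10 in neutrophils, 2.19 in activated-like cells), Ccrl2 (0.61, activated-like), Cxcl2 (0.91, monocytes and macrophages) and members not tested with the filter. The same setting turned activated-like Cxcr2 (−0.0046) and Cxcr4 (−0.023). Library totals turned Cxcr4 (−0.10) and Cxcl1 (−0.12) in all CD45+ cells and Cxcr4 in activated-like cells (−0.012), and moved the median of all genes in all CD45+ cells to −0.11. Cxcl1 in all CD45+ cells also turned with DESeq2 (−0.16), the likelihood ratio test (−0.15), the 10% mitochondrial limit (−0.11) and no upper limit on genes (−0.043). Without that limit Cxcr4 turned in all CD45+ (−0.018) and activated-like cells (−0.017), and in activated-like cells also with 10 (−0.048) and 30 (−0.023) components. The mature-like share differed by 4.93 points with 30 components, against −1.12. The cause was not tested in any of these.

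Leaving out each mouse gave log2 ranges of −0.13 to 0.17 for Cxcr4 and −0.78 to 0.61 for Cxcl1 in all CD45+ cells. In neutrophils they were −0.081 to 0.19 (Cxcr2), −0.31 to 0.049 (Cxcr4), −0.19 to 0.092 (Cxcl2) and −0.080 to 0.25 (Ccrl2), in activated-like cells −0.036 to 0.17 (Cxcr2) and −0.060 to 0.14 (Cxcr4), and for Ccrl2 in monocytes and macrophages −0.12 to 0.81. Shares of neutrophils ranged from −0.15 to 3.01 points (Fcnb-led), −1.37 to 1.88 (Ltf-led) and −4.92 to 3.53 (mature-like), and the Cxcl2 UMI share of neutrophils from −2.92 to 2.51. Without any 1 mouse 0 members were called by edgeR.

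Genes called in all CD45+ cells were 2 by edgeR and 14 by DESeq2, 20 by the likelihood ratio test and 10 without the filter. In neutrophils they were 0, 2, 2 and 38, and in monocytes and macrophages 7, 39, 130 and 260, with 25 by library totals. With the members kept in the clustering, 24 of 30 cluster levels stayed within 1 SD, and the other 6 were all in the earliest clusters. Fcnb-led levels were then 69.8 (Cxcr2), 363 (Cxcl2) and 45.8 CPM (Ccrl2), and Ltf-led levels 221 (Cxcr2), 119 (Cxcr4) and 1002 CPM (Cxcl2). Resolution 0.3 gave only 3 of the 6 neutrophil names, so other stages had no value there. No paired analysis was possible because the barcode suffixes do not tie mice of one group to mice of the other. Rare ligands limit the depth: Cxcl1 and Cxcl3 had 306 and 419 UMIs in all.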

Other observations

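In neutrophils thinned to 1000 UMIs, Cxcr4 was seen in 38.6% of cells with a Cxcl2 UMI and in 24.6% of those without, higher with Cxcl2 in 8 of 8 mice. Within clusters the direction differed. In mature-like cells the shares were 42.9% and 39.4%, higher with Cxcl2 in 7 of 8 mice. In stefin-led cells they were 22.4% and 22.3% (higher in 4 of 8 mice). In activated-like cells they were 53.9% and 60.5% (2 of 6), and in Ltf-led cells 3.97% and 8.88% (0 of 6). In Fcnb-led and interferon-like cells the share was higher with Cxcl2, but only 1 and 2 mice had at least 10 cells of each kind. Among the small clusters, 49 nonclassical-monocyte-like cells had 596 CPM of Cxcr4 and 271 CPM of Ccrl2 (pooled over mice), against 146 CPM of Cxcr4 in macrophage-like cells. The 27 mast-cell-or-basophil-like cells held 24 Cxcr4 UMIs in 14 cells.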
